A study of Mus musculus with 12 samples.

Results

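The genes described here are 36 components of proximal T cell receptor signalling in mouse CD4 T cells: the CD3 chains and the coreceptor, the tyrosine kinases, the adaptors, the enzymes and transcription factors that act next, and the regulators that restrain or tune the signal. They were taken from a list by symbol, and each was represented by its brightest probe over 12 Illumina arrays. Of the 36 genes, 33 had a probe annotated with that single symbol, and 30 had a probe brighter than the array median on 3 or more of the 12 arrays and were tested among 12119 genes. Txk, Plcg1 and Ubash3b had only dim probes, and Lck, Cd5 and Sh2d1a had no probe annotated with that symbol alone and were not analysed here. By role, the tested genes were 5 of 5 receptor chains and coreceptors, 2 of 4 tyrosine kinases, 5 of 6 adaptors, 7 of 8 effectors and transcription factors, and 11 of 13 negative or dual regulators.

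When the T cell receptor binds its ligand, LCK and FYN phosphorylate the CD3 and zeta chains, ZAP-70 docks there and phosphorylates the scaffold LAT, and LAT together with GADS (Grap2) and SLP-76 (Lcp2) assembles the complex that recruits phospholipase C gamma and VAV1. The phospholipase yields diacylglycerol, which acts on RASGRP1 and protein kinase C theta (Prkcq), and inositol trisphosphate, which releases calcium and activates NFAT. Several phosphatases, CSK, the CBL ubiquitin ligases and the diacylglycerol kinases oppose these steps, while the phosphatase CD45 (Ptprc) frees LCK for activation. The phorbol ester PMA stands in for diacylglycerol and ionomycin raises calcium, so stimulation with both acts below the receptor, its kinases and LAT.

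Total RNA came from 4 populations with 3 arrays each: Blimp1-deficient pTreg (labelled CKO), Blimp1-sufficient pTreg (labelled Ctrl), Blimp1-deficient Teff (CKO) and Blimp1-sufficient Teff (Ctrl). Blimp1, the product of Prdm1, is a transcriptional repressor that acts in lymphocyte differentiation. All populations descended from naive CD4 T cells (CD44 low) of C57BL/6 mice aged 8 to 12 weeks with a Foxp3-GFP reporter, which were injected in equal parts of both genotypes into RAG1-/- hosts, animals without T and B cells of their own. After 6 to 8 weeks the progeny were sorted by CD4, the reporter and an allotype marker into regulatory (Foxp3+, pTreg) and effector (Foxp3-, Teff) cells, and all 4 groups were stimulated with PMA and ionomycin for 4 h in culture. Spleen, mesenteric lymph nodes and lamina propria of the large intestine were combined in every sample. Both genotypes therefore shared hosts, and no source used here names the allele that deletes Prdm1, its Cre driver or the number of animals behind a sample.

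The labels were checked against marker genes. Foxp3, which the sort used through its reporter, had log2 values of 7.29 to 8.94 on the 6 pTreg arrays and 4.42 to 4.85 on the 6 Teff arrays. Prdm1 gave a higher signal on the arrays labelled CKO, 9.16, 8.47 and 9.48 in pTreg against 5.19, 6.07 and 6.03 on the Ctrl pTreg arrays, and 7.83, 9.0 and 7.94 in Teff against 4.64, 5.39 and 4.73 on the Ctrl Teff arrays. Whether that probe falls inside the deleted segment is unknown here, so it does not check the genotype labels, and each direction below is that of the arrays labelled CKO against the arrays labelled Ctrl. Genes of other cell types differed between Teff arrays. The mean log2 value of 8 basophil and mast cell markers tested, of 10 listed, was 10.41, 9.36 and 5.45 on the CKO Teff arrays 1 to 3, against 5.64, 6.35 and 4.94 on those of Ctrl Teff. For 8 of 12 CD8 and NK cell markers it was 7.34, 8.58 and 6.17, against 6.04, 6.15 and 5.89, and for 12 of 17 myeloid markers 8.37, 9.16 and 7.32, against 6.62, 8.58 and 5.90. CKO Teff arrays 1 and 2 were thus the highest of the Teff arrays for the basophil and the CD8 and NK lists. The 13 of 15 neutrophil markers tested averaged 8.94, 9.41 and 7.04 on the CKO Teff arrays, against 7.95, 9.97 and 6.28 on the Ctrl Teff arrays, and 8.06, 5.94 and 8.20 on the CKO pTreg arrays, against 9.06, 6.25 and 8.75 on the Ctrl pTreg arrays. Defining markers whose probes did not pass the filter were Cd8a and Ncr1 (CD8 and NK cells), Itgax (dendritic cells), Ms4a2 and Tpsb2 (mast cells and basophils) and Pax5, Cr2 and Fcer2a (B cells), and the 3 B cell markers tested of 12 listed averaged at most 4.83 on every array. Cd8b1 of the CD8 and NK list did pass the filter, with mean log2 values of 9.44 in CKO pTreg and 9.69 in Ctrl pTreg. The part that cells of other types play in the differences between groups was not tested. The Teff differences of the genes described at most length are also given without CKO Teff arrays 1 and 2. These set CKO Teff array 3 alone against the mean of the 3 Ctrl Teff arrays, so they have no spread. They do not follow the array numbers, so the difference within the Teff pair numbered 3 is given beside most of them.

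**Figure D1:**
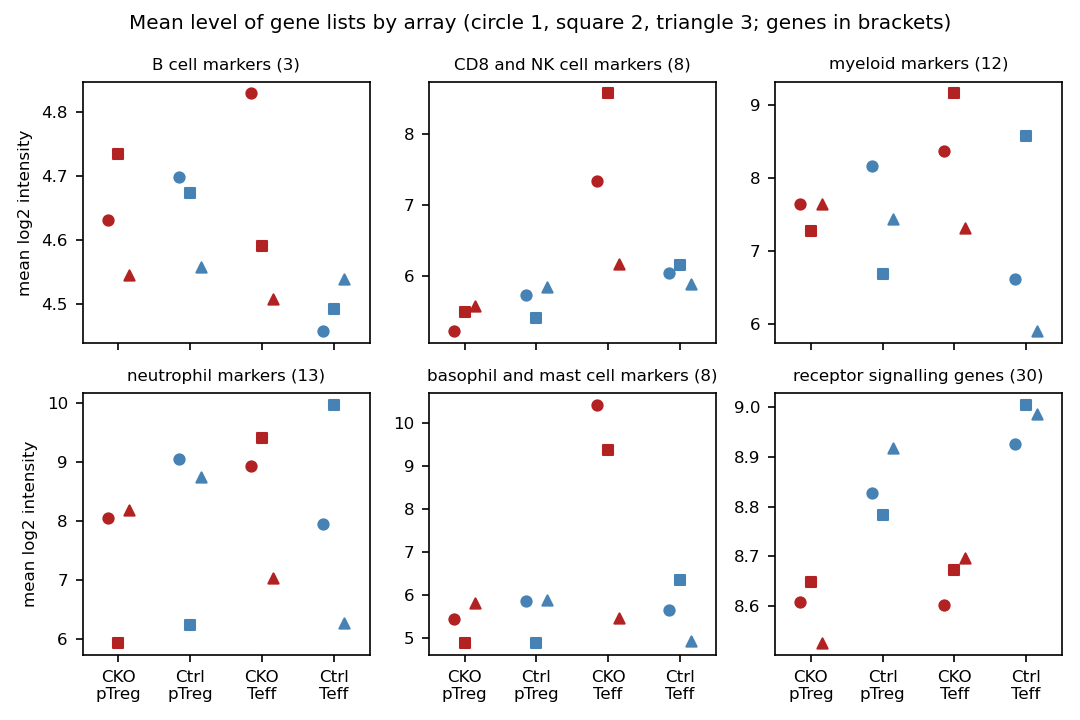
Mean log2 value (vertical axis) of marker lists of other cell types and of the 30 tested signalling genes on each of the 12 arrays (points), by group along the horizontal axis, CKO left of Ctrl within each cell type. The basophil and mast cell list stood at 10.41 and 9.36 on 2 CKO Teff arrays and at 5.45 on the third, while the signalling genes lay between 8.53 and 9.0 on all arrays.

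Most proximal signalling genes had lower values on the arrays labelled CKO in both cell types, by small amounts. In pTreg 21 of 30 had the lower mean in CKO and the median log2 difference was −0.29, where 49.7% of all 12119 genes were lower and the median over all genes was 0.00. In Teff 28 of 30 had the lower mean in CKO and the median was −0.22, where 55.8% of all genes were lower and the median was −0.02. Without CKO Teff arrays 1 and 2 the count in Teff was 23 of 30, with a median of −0.21 (49.9% of all genes). That count rests on 1 CKO Teff array and has no spread. Without Ctrl Teff array 2, the highest for neutrophil markers, the count was 24 of 30, with a median of −0.21 (58% of all genes). The mean log2 value of the 30 genes was 8.61, 8.65 and 8.53 on the CKO pTreg arrays, against 8.83, 8.78 and 8.92 on the Ctrl pTreg arrays, and 8.60, 8.67 and 8.70 on the CKO Teff arrays, against 8.93, 9.0 and 8.99 on the Ctrl Teff arrays. These means, given as a description, did not overlap between the genotypes in either cell type, while the mean of all 12119 genes lay between 6.35 and 6.42 on every array. Some pathway lists read further below were also lower in CKO pTreg without overlap. Other proximal genes averaged 7.16, 7.15 and 7.05, against 7.31, 7.22 and 7.23 in Ctrl pTreg. Calcium and NFAT genes averaged 7.70, 7.73 and 7.49, against 7.77, 7.79 and 7.77. Both lists overlapped in Teff, and the Ras and NF-kB lists overlapped in both cell types. In such bulk samples fewer cells of a type and less RNA per cell cannot be told apart.

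By gene, limma with 1 mean per group called 0 of the 30 genes between the genotypes at a Benjamini-Hochberg adjusted p under 0.05. In pTreg 12 of all 12119 genes passed (0.099%), and 4 of the 30 were under 0.05 before adjustment, all lower in CKO (3.01% of all genes were lower and under it). In Teff 2 of all genes passed (0.0165%), and 5 of the 30 were under 0.05 before adjustment, all lower in CKO (2.07% of all genes). Same-numbered CKO and Ctrl arrays of a cell type deviated together, and with the replicate number as a block 3 of the 30 genes passed in pTreg, Grap2, Malt1 and Rasgrp1, all lower in CKO (1.3% of all genes passed and were lower), and Grap2 passed in Teff, also lower (0.0578%). With the block 10 of the 30 were under 0.05 before adjustment in pTreg (14.1% of all genes) and 11 of 30 in Teff (10.4%). Groups without overlap were found for 6 genes in pTreg and for 6 in Teff, all lower in CKO, where 6.36% of all genes in pTreg and 3.89% in Teff were lower without overlap. Grap2, Malt1 and Lat were among the 6 in both cell types, joined in pTreg by Rasgrp1, Nfatc3 and Dgka and in Teff by Cd3g, Vav1 and Cd6.

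**Figure D2:**
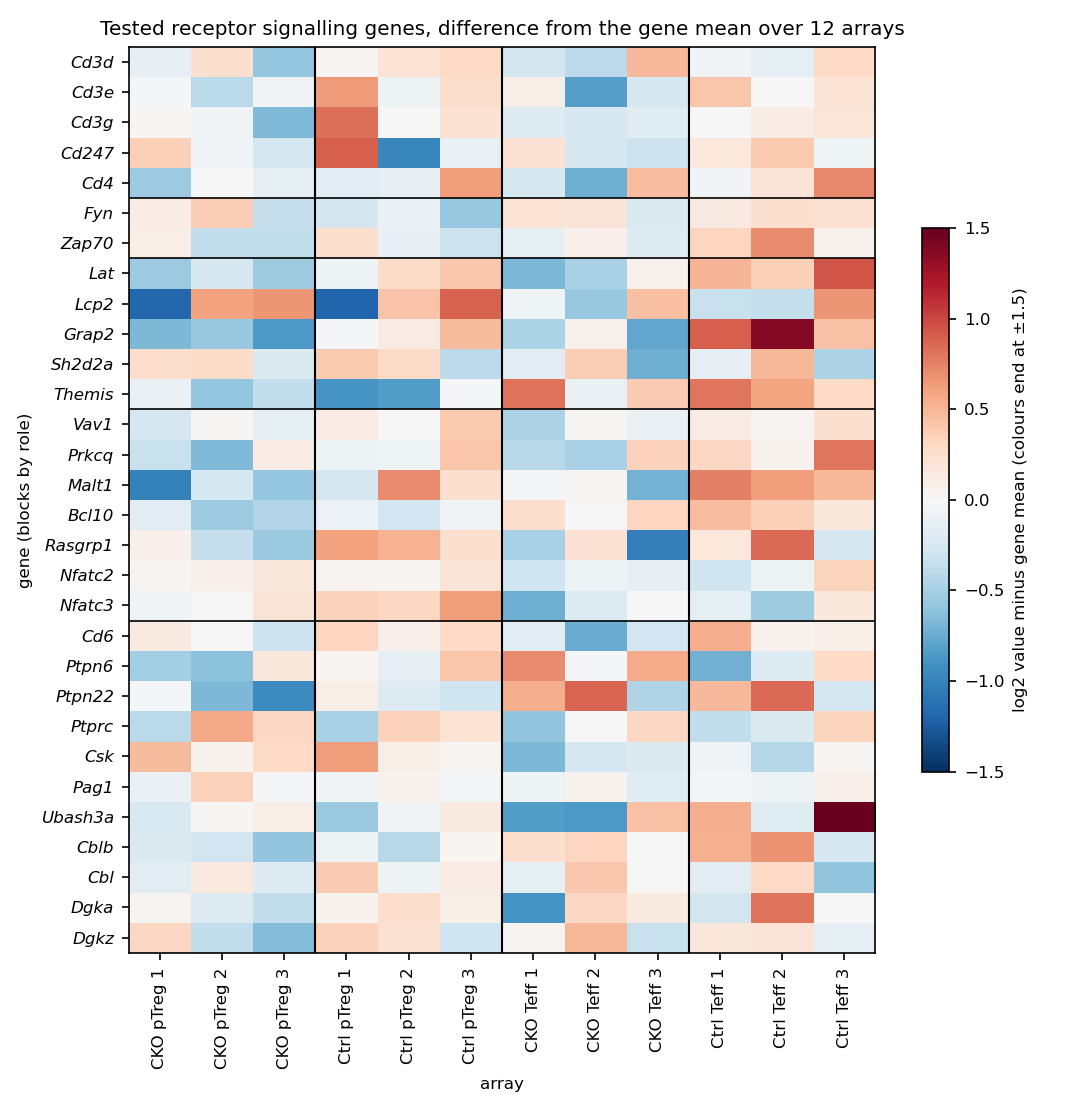
Log2 value of each tested signalling gene (rows, in blocks by role) on each of the 12 arrays (columns), drawn as the difference from that gene's mean over all arrays, with CKO columns left of Ctrl columns within pTreg and Teff. Grap2, Malt1, Lat and Rasgrp1 had lower means on the CKO than on the Ctrl columns of both cell types. Not every CKO column of these genes lay below the gene's mean over all arrays. Themis and Bcl10 had lower means on the pTreg columns.

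Grap2 encodes GADS, the adaptor that links LAT to SLP-76, and showed the largest genotype difference of the 30 genes in both cell types (probe ILMN_3113787). Its log2 values were 5.01, 5.12 and 4.82 on the CKO pTreg arrays, against 5.68, 5.81 and 6.16 on the Ctrl pTreg arrays. In Teff they were 5.21, 5.75 and 4.91 on the CKO Teff arrays, against 6.58, 7.07 and 6.13 on the Ctrl Teff arrays. Every CKO array lay below every Ctrl array of its cell type. The log2 difference was −0.90 ± 0.26 (SE) in pTreg (limma, adjusted p = 0.473, with the block 0.0217), and −1.30 ± 0.26 in Teff (adjusted p = 0.676, with the block 0.0238). With 1 pair of arrays left out of the blocked fit the call in pTreg was lost for any of the 3 pTreg pairs (adjusted p = 0.0854, 0.0691 and 0.108 without pairs 1, 2 and 3), and that in Teff without Teff pair 1 (0.188), Teff pair 2 (0.0522) or pTreg pair 1 (0.0556). The CKO values were dim, near array medians of 4.66 to 4.68, so no fold is given. Its other probe above the filter differed by −0.98 in pTreg and −1.32 in Teff. Without CKO Teff arrays 1 and 2 the Teff difference was −1.68, against −1.21 in Teff pair 3.

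Lat, the transmembrane scaffold that ZAP-70 phosphorylates, followed Grap2 in direction. It stood at 10.15, 10.45 and 10.15 on the CKO pTreg arrays, against 10.61, 10.97 and 11.09 on the Ctrl pTreg arrays. On the Teff arrays it stood at 10.01, 10.20 and 10.76 on the CKO Teff arrays, against 11.20, 11.04 and 11.63 on the Ctrl Teff arrays. No CKO array reached a Ctrl array of its cell type, and the 6 same-numbered pairs all had the CKO array lower, with differences of −0.46, −0.52 and −0.94 in pTreg and −1.19, −0.84 and −0.87 in Teff. The log2 difference was −0.64 ± 0.22 in pTreg (adjusted p = 0.650, with the block 0.0525) and −0.97 ± 0.22 in Teff (adjusted p = 0.727, with the block 0.0541), so Lat did not pass in either fit. Without CKO Teff array 3 it passed in Teff (adjusted p = 0.0493, log2 difference −1.18), and without CKO Teff arrays 1 and 2 the difference was −0.53. The array carried a single Lat probe, ILMN_2660551.

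The promoters of Grap2, Lat and Rasgrp1, which are among the genes with lower values in CKO in all 6 same-numbered pairs, are shown as the 250 bases before the start that the RefSeq promoter table gives for each gene (mouse GRCm38.p6, written along the gene's strand), with capitals on AGGAA or its reverse complement TTCCT, the core that ETS factors bind. They lie at chr15:80623233-80623482 (Grap2, + strand), chr7:126369569-126369818 (Lat, - strand) and chr2:117342878-117343127 (Rasgrp1, - strand). The Rasgrp1 window borders the annotated gene, while the windows of Grap2 and Lat lie wholly or partly within the annotated genes, which span chr15:80572597-80652854 and chr7:126363827-126369705, so their starts are internal to the longest extent of the gene.
Grap2: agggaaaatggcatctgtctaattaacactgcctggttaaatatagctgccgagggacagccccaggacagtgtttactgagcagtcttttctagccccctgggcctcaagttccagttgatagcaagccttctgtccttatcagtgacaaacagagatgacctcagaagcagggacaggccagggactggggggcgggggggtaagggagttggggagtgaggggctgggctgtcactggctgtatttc
Lat: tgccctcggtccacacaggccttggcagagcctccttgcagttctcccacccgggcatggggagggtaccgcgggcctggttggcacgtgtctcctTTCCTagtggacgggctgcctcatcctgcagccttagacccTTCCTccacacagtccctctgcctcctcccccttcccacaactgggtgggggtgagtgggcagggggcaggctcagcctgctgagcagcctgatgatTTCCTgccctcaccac
Rasgrp1: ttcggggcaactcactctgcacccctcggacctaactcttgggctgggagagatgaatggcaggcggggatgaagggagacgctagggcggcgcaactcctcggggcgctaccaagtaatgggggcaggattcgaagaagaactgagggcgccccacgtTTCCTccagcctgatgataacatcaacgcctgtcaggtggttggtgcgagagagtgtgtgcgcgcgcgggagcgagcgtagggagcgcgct
The core was found 3 times in the Lat window, 1 time in the Rasgrp1 window and 0 times in the Grap2 window. Over both strands 25 of the 30 listed genes with a window held it, and 60.28% of all 32851 windows of this length did. These 30 are not the 30 tested genes, since they include the untested Lck, Cd5, Txk and Ubash3b. The letters AGNGAAAG, searched on both strands as a Blimp1-type motif, were in none of these 3 windows. They were in those of Dgka, Ptpn22 and Ubash3b, 3 of 30, and in 7.3% of all windows. Neither of the motifs contains the other, and they were counted separately.

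The other adaptors had smaller genotype differences. Lcp2, which encodes SLP-76, differed by −0.01 ± 0.61 in pTreg and −0.05 ± 0.61 in Teff, with 95% intervals reaching −1.37 and 1.34 in pTreg. Sh2d2a, the LCK-binding adaptor TSAd, differed by 0.01 ± 0.33 and −0.14 ± 0.33. Themis, an adaptor of the T lineage that works in thymocyte selection, had 6.60, 6.13 and 6.34 on the CKO pTreg arrays, against 5.81, 5.86 and 6.67 on the Ctrl pTreg arrays, with a difference of 0.24 ± 0.28. In Teff it had 7.52, 6.60 and 7.09 on the CKO Teff arrays, against 7.50, 7.30 and 7.00 on the Ctrl Teff arrays, a difference of −0.20 ± 0.28. Its genotypes overlapped in both cell types.

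Among the effectors, 6 of 7 in pTreg and 7 of 7 in Teff were lower in CKO. Malt1, the paracaspase that acts with BCL10 upstream of NF-kB, had 6.12, 6.87 and 6.56 on the CKO pTreg arrays, against 6.88, 7.84 and 7.39 on the Ctrl pTreg arrays (probe ILMN_1216818). Its Teff values were 7.11, 7.15 and 6.43 on the CKO Teff arrays, against 7.89, 7.77 and 7.64 on the Ctrl Teff arrays. Again the genotypes did not overlap in either cell type. The log2 difference was −0.85 ± 0.28 in pTreg, 1.81-fold lower (adjusted p = 0.576, with the block 0.0194), and −0.87 ± 0.28 in Teff, 1.83-fold lower (adjusted p = 1.00, with the block 0.0641). The blocked call in pTreg was lost without any 1 of the 3 pTreg pairs (adjusted p = 0.106, 0.114 and 0.109). Without CKO Teff arrays 1 and 2 the Teff difference was −1.34, against −1.21 in Teff pair 3. Its partner Bcl10 differed by only −0.23 ± 0.14 in pTreg and −0.14 ± 0.14 in Teff.

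Rasgrp1, the exchange factor that activates Ras in response to diacylglycerol, had 10.55, 10.13 and 9.93 on the CKO pTreg arrays, against 11.09, 11.00 and 10.72 on the Ctrl pTreg arrays (probe ILMN_1246609). In Teff its values were 9.99, 10.69 and 9.45 on the CKO Teff arrays, against 10.64, 11.32 and 10.22 on the Ctrl Teff arrays. The groups did not overlap in pTreg and overlapped in Teff, and the CKO array was the lower in all 6 same-numbered pairs. The log2 difference was −0.73 ± 0.34 in pTreg (adjusted p = 0.948, with the block 0.0180) and −0.68 ± 0.34 in Teff (adjusted p = 1.00, with the block 0.0697). Without pTreg pairs 1, 2 and 3 in turn the blocked adjusted p in pTreg was 0.0768, 0.109 and 0.122. The probes of Rasgrp1 disagreed: others above the filter differed by 0.08 and −0.06 in pTreg and by −0.53 and −0.09 in Teff, and with the mean of its probes the pTreg difference was −0.24. Without CKO Teff arrays 1 and 2 the Teff difference was −1.28, against −0.77 in Teff pair 3.

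Prkcq, protein kinase C theta, which acts at the contact site with the presenting cell, had 5.12, 4.79 and 5.57 on the CKO pTreg arrays, against 5.38, 5.39 and 5.86 on the Ctrl pTreg arrays. Its Teff values were 5.03, 4.96 and 5.79 on the CKO Teff arrays, against 5.77, 5.51 and 6.26 on the Ctrl Teff arrays. The CKO array was lower in all 6 pairs, but the groups overlapped, with differences of −0.38 ± 0.29 and −0.58 ± 0.29. Without CKO Teff arrays 1 and 2 that in Teff was −0.05, against −0.47 in Teff pair 3. Vav1, the exchange factor recruited by SLP-76, differed by −0.30 ± 0.15 in pTreg and −0.32 ± 0.15 in Teff, with no overlap in Teff (unadjusted p = 0.0645). Nfatc3, a transcription factor driven by calcineurin, had 9.21, 9.25 and 9.45 on the CKO pTreg arrays, against 9.60, 9.57 and 9.88 on the Ctrl pTreg arrays, without overlap and with a difference of −0.38 ± 0.22 (unadjusted p = 0.110). In Teff Nfatc3 had 8.53, 9.05 and 9.27 on the CKO Teff arrays, against 9.13, 8.73 and 9.43 on the Ctrl Teff arrays, a difference of −0.15 ± 0.22. Its Teff difference without CKO Teff arrays 1 and 2 was 0.17, against −0.16 in Teff pair 3. Other Nfatc3 probes above the filter included 1 at 0.11 in pTreg. Nfatc2 differed by 0.01 and −0.15, at low values on the arrays.

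**Figure D3:**
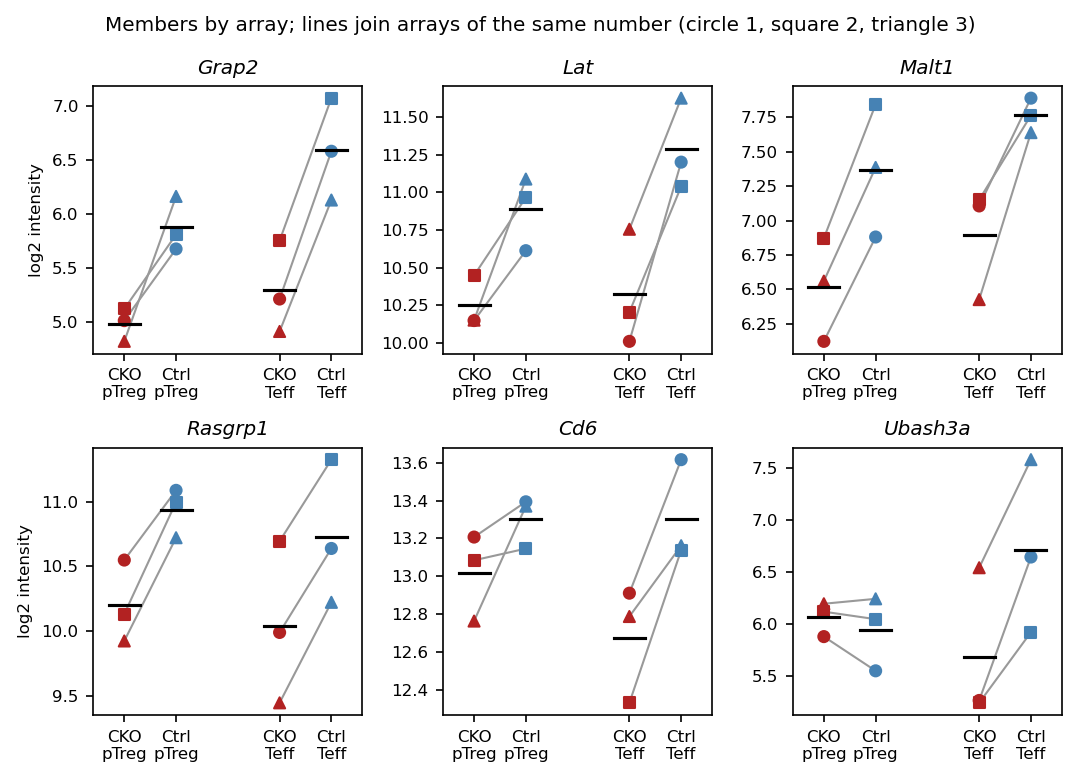
Log2 value (vertical axis) of selected signalling genes on each array, with lines joining same-numbered CKO (left) and Ctrl (right) arrays within pTreg and Teff. For Grap2, Lat, Malt1 and Rasgrp1 all 6 lines had the CKO end lower, with Lat differing by −0.46, −0.52 and −0.94 in the 3 pTreg pairs.

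The 5 receptor chains and coreceptors had a median log2 difference between CKO and Ctrl of −0.34 in pTreg and −0.31 in Teff. Without CKO Teff arrays 1 and 2 the Teff differences of Cd3d and Cd4 were 0.45 and 0.17. Those of Cd3e, Cd3g and Cd247 were then −0.45, −0.28 and −0.47. In Teff pair 3 Cd3d differed by 0.19 and Cd4 by −0.27. Cd3e had 11.55, 11.18 and 11.53 on the CKO pTreg arrays, against 12.22, 11.51 and 11.85 on the Ctrl pTreg arrays. Among Teff it had 11.68, 10.76 and 11.34 on the CKO Teff arrays, against 12.00, 11.58 and 11.78 on the Ctrl Teff arrays. The CKO array was lower in all 6 pairs, although the groups overlapped, and the differences were −0.44 ± 0.25 and −0.53 ± 0.25 (adjusted p = 1.00 and 1.00, with the block 0.167 and 0.186). Cd3g differed by −0.58 ± 0.22 in pTreg (unadjusted p = 0.0260) and by −0.31 ± 0.22 in Teff, where its groups did not overlap, and Cd3d by −0.33 and −0.10. Cd247, the zeta chain that carries most of the activation motifs, had 8.99, 8.59 and 8.37 on the CKO pTreg arrays, against 9.54, 7.66 and 8.53 on the Ctrl pTreg arrays. In Teff it had 8.86, 8.40 and 8.33 on the CKO Teff arrays, against 8.80, 9.03 and 8.58 on the Ctrl Teff arrays, and its differences were 0.08 ± 0.39 and −0.27 ± 0.39. Its other probes above the filter differed by −0.53 and −0.11 in pTreg, opposite in sign to the brightest, and by −0.20 and −0.29 in Teff.

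Cd4, the coreceptor by which the cells were sorted, gave low values on arrays whose medians were 4.66 to 4.68. It had 5.13, 5.67 and 5.53 on the CKO pTreg arrays, against 5.50, 5.55 and 6.31 on the Ctrl pTreg arrays. Its Teff values were 5.43, 4.95 and 6.13 on the CKO Teff arrays, against 5.63, 5.87 and 6.40 on the Ctrl Teff arrays. The groups overlapped, with differences of −0.34 ± 0.33 and −0.46 ± 0.33.

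Of the kinases, Zap70 had 12.28, 11.82 and 11.82 on the CKO pTreg arrays, against 12.43, 12.07 and 11.86 on the Ctrl pTreg arrays. In Teff Zap70 had 12.05, 12.26 and 11.99 on the CKO Teff arrays, against 12.51, 12.89 and 12.24 on the Ctrl Teff arrays. Its differences were −0.14 ± 0.21 in pTreg and −0.44 ± 0.21 in Teff (unadjusted p = 0.0570), with overlap in both. Fyn, the Src-family kinase that acts beside LCK, had 8.37, 8.62 and 7.91 on the CKO pTreg arrays, against 7.98, 8.15 and 7.68 on the Ctrl pTreg arrays, the largest positive difference of the 30 genes in pTreg at 0.36 ± 0.20 (unadjusted p = 0.0929). In Teff Fyn had 8.46, 8.45 and 8.04 on the CKO Teff arrays, against 8.39, 8.50 and 8.48 on the Ctrl Teff arrays, a difference of −0.14 ± 0.20. Txk, a TEC-family kinase, Plcg1, the phospholipase, and Ubash3b lay between 4.30 and 4.74 on all 12 arrays, near or below the medians, and no difference could be read for them.

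Among the negative or dual regulators, 7 of 11 in pTreg and 9 of 11 in Teff were lower in CKO. Ubash3a, a suppressor of receptor signalling of the STS family, had 5.26, 5.24 and 6.54 on the CKO Teff arrays, against 6.64, 5.92 and 7.58 on the Ctrl Teff arrays. In pTreg it had 5.88, 6.12 and 6.19 on the CKO pTreg arrays, against 5.55, 6.05 and 6.24 on the Ctrl pTreg arrays. Its difference was −1.03 ± 0.43 in Teff (unadjusted p = 0.0359, adjusted p = 1.00, with the block 0.0568) and 0.12 ± 0.43 in pTreg, with overlap in both cell types. Without CKO Teff arrays 1 and 2 the Teff difference was −0.17, against −1.04 in Teff pair 3. With the block and without Teff pair 2 it was −1.21 (adjusted p = 0.0401).

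Cd6, a scavenger-type surface receptor that can both assist and restrain the signal, had 12.91, 12.33 and 12.79 on the CKO Teff arrays, against 13.62, 13.14 and 13.16 on the Ctrl Teff arrays, and the groups were apart. The difference was −0.63 ± 0.19 in Teff (unadjusted p = 0.00792) and −0.29 ± 0.19 in pTreg, and 3 further probes were lower in CKO in both cell types. The Teff difference of Cd6 without CKO Teff arrays 1 and 2 was −0.52, against −0.37 in Teff pair 3. Cd6, Bcl10 and Vav1 are described after their values were seen. Cbl, an E3 ubiquitin ligase, had 5.12, 5.67 and 5.27 on the CKO Teff arrays, against 5.11, 5.57 and 4.67 on the Ctrl Teff arrays, a difference of 0.24 ± 0.23. In pTreg Cbl had 5.11, 5.41 and 5.07 on the CKO pTreg arrays, against 5.65, 5.19 and 5.39 on the Ctrl pTreg arrays, a difference of −0.21. Cblb, its relative that sets the need for costimulation, differed by −0.22 in pTreg and −0.13 in Teff. Both ligases overlapped between the genotypes in each cell type.

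The diacylglycerol kinases, which remove the lipid that RASGRP1 responds to, passed in neither cell type: Dgka differed by −0.32 ± 0.33 in pTreg, without overlap, and −0.34 ± 0.33 in Teff, and Dgkz by −0.33 ± 0.28 and −0.01 ± 0.28. The Dgka groups in pTreg were barely apart, with CKO pTreg array 1 at 9.61 and Ctrl pTreg array 1 at 9.62. Other Dgka probes above the filter differed by −0.04 and −0.28 in pTreg. Ptprc encodes CD45, the phosphatase that frees LCK for activation. It had 5.95, 6.92 and 6.66 on the CKO pTreg arrays, against 5.87, 6.70 and 6.56 on the Ctrl pTreg arrays, a difference of 0.13 ± 0.33, and in Teff 5.76, 6.35 and 6.67 on the CKO Teff arrays, against 5.98, 6.14 and 6.69 on the Ctrl Teff arrays, a difference of −0.01 ± 0.33. A second Ptprc probe differed by 0.58 in pTreg. Csk, the kinase that holds LCK inactive, differed by 0.02 and −0.23, and Pag1, its membrane anchor, by 0.08 and −0.06. Ptpn22, a phosphatase that works with CSK, differed by −0.42 ± 0.38 in pTreg and −0.04 ± 0.38 in Teff.

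Ptpn6 encodes SHP-1, a phosphatase that dampens receptor signals, and its genotype difference had opposite signs in the cell types. It had 8.66, 8.56 and 9.34 on the CKO pTreg arrays, against 9.21, 9.06 and 9.59 on the Ctrl pTreg arrays. In Teff it had 9.89, 9.15 and 9.74 on the CKO Teff arrays, against 8.46, 8.99 and 9.48 on the Ctrl Teff arrays. The CKO array was lower in 3 of 3 pTreg pairs and higher in 3 of 3 Teff pairs, although the groups overlapped in each. The difference was −0.43 ± 0.30 in pTreg and 0.62 ± 0.30 in Teff, and the first minus the second, the interaction, was −1.05 ± 0.43 (unadjusted p = 0.0335, adjusted p = 1.00). Its second probe differed by −0.53 and 0.45. Without CKO Teff arrays 1 and 2 the Teff difference was 0.76, against 0.26 in Teff pair 3. Ptpn6 is also expressed in myeloid cells, of whose 12 tested markers 11 were higher in CKO Teff than in Ctrl Teff, and their part in the Teff value was not tested.

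**Figure D4:**
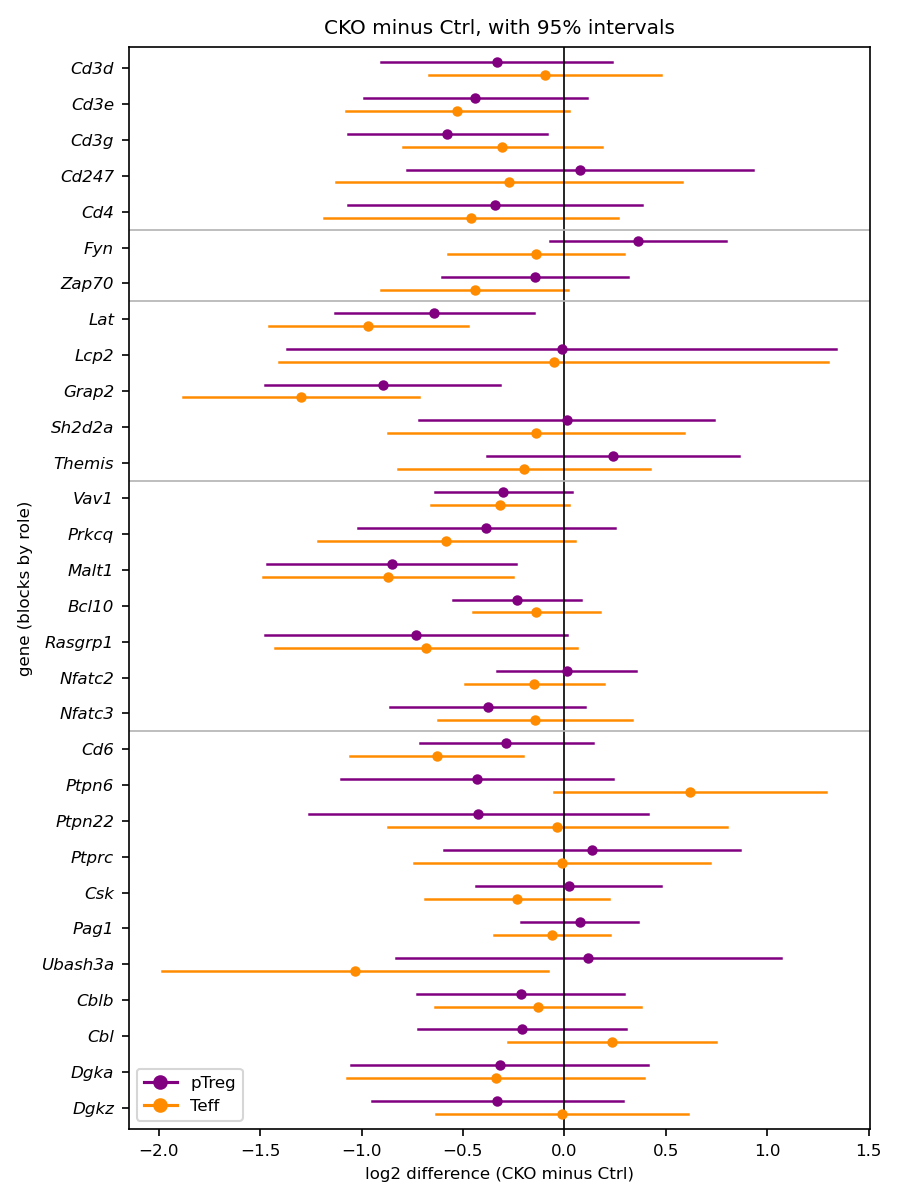
Log2 difference, CKO minus Ctrl (horizontal axis), of the 30 tested genes (rows, in blocks by role) in pTreg and in Teff, with 95% intervals from limma without the block. In pTreg 21 of 30 points and in Teff 28 of 30 lay below 0, with Grap2 farthest out at −0.90 and −1.30.

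For the question whether the genotype difference itself depended on the cell type, limma called 0 of the 30 genes for the interaction (2 of all genes, 0.0165%), and Ptpn6 alone was under 0.05 before adjustment (3.48% of all genes). With the block 0 of 30 passed (0.0413% of all genes), with 3 of 30 under 0.05 before adjustment (11.4% of all genes). Ubash3a had the largest interaction in size, 1.15 ± 0.61, with a 95% interval of −0.19 to 2.49. For Grap2, Lat, Malt1 and Rasgrp1 it was 0.40, 0.33, 0.02 and −0.05, with SE of 0.37, 0.31, 0.39 and 0.48. None of these 4 passed.

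The genotype difference was also taken as its mean over both cell types, a comparison added after the data had been seen. Without the block limma called 0 of 30 genes (14 of all genes, 0.116%), and 9 of 30 were under 0.05 before adjustment, all lower in CKO (3.06% of all genes). With the block 6 of 30 passed, all lower (1.27% of all genes). These were Grap2 (−1.10, adjusted p = 0.00251), Malt1 (−0.86, 0.00449), Rasgrp1 (−0.71, 0.00505), Lat (−0.80, 0.00567), Prkcq (−0.48, 0.0299) and Cd3e (−0.48, 0.0423), where the first number is the log2 difference and the second the blocked adjusted p. The regulators Cd6 (−0.46, 0.0594) and Ubash3a (−0.46, 0.0690) did not pass. In the same blocked fit 4 genes of the myeloid list passed, all higher in CKO. They were Cd74 (1.27, 0.00251), H2-Aa (1.64, 0.0211), H2-Ab1 (1.60, 0.0222) and H2-Eb1 (1.65, 0.0324). Of the 12 myeloid markers tested, 10 were higher and 2 lower in CKO for this mean, and their part in the calls was not tested. Without CKO Teff arrays 1 and 2, in the fit with no block, the mean difference of Prkcq was −0.22. Cd3e was lost without any 1 of the 6 pairs, with adjusted p between 0.0661 and 0.141, and Prkcq without any pair but Teff pair 3, with adjusted p between 0.0722 and 0.0970. Without the block Grap2 passed when CKO Teff array 2 was left out (adjusted p = 0.0434) and Lat when CKO Teff array 3 was (adjusted p = 0.0305).

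Between pTreg and Teff the log2 differences of the 5 receptor chains and coreceptors, pTreg minus Teff, lay between −0.10 and 0.16 in CKO and between −0.22 and 0.25 in Ctrl. Among CKO cells the median difference of the 30 genes was −0.02, where that of all genes was 0.03, with 17 of 30 lower in pTreg (44.3% of all genes). Limma called 0 of 30 (43 of all genes, 0.355%), and 6 of 30 were under 0.05 before adjustment (10.8% of all genes). Among Ctrl cells the median was 0.00, where that of all genes was 0.01, with 15 of 30 lower in pTreg (47.6% of all genes). Limma again called 0 of 30 (123 of all genes, 1.01%), and 5 of 30 were under 0.05 before adjustment (10.4% of all genes). Groups did not overlap for 4 of 30 genes in CKO (13.7% of all genes) and for 4 of 30 in Ctrl (14.3%). The share without overlap, 13.3% of the 30 genes in each genotype, was near that of all genes, and the shares under 0.05 before adjustment were 20% in CKO and 16.7% in Ctrl. The pTreg against Teff comparisons share no array with each other, but each shares its arrays with the genotype comparisons.

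Themis had the largest difference between the cell types in Ctrl. From the values given above, its log2 difference was −0.71 ± 0.28 in CKO (unadjusted p = 0.0283), with overlap, and −1.15 ± 0.28 in Ctrl (unadjusted p = 0.00190, adjusted p = 0.105), without overlap. Without Ctrl pTreg array 3 the Ctrl difference was −1.43 and passed (adjusted p = 0.0418). Bcl10 was lower in pTreg in both genotypes without overlap. It had 9.82, 9.44 and 9.55 on the CKO pTreg arrays, against 10.23, 9.98 and 10.30 on the CKO Teff arrays, a difference of −0.57 ± 0.14 (unadjusted p = 0.00226, adjusted p = 0.133). Among Ctrl arrays it had 9.89, 9.69 and 9.92 in pTreg, against 10.45, 10.34 and 10.15 in Teff, a difference of −0.47 ± 0.14 (unadjusted p = 0.00701, adjusted p = 0.202). The direction of Bcl10 was thus the same in both genotypes, without a call in either.

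Further kinases and regulators differed between the cell types without passing. Fyn differed by −0.02 ± 0.20 in CKO and by −0.52 ± 0.20 in Ctrl, and Nfatc3 by 0.35 ± 0.22 in CKO and 0.59 ± 0.22 in Ctrl, both without overlap in Ctrl. Grap2 differed by −0.31 ± 0.26 in CKO and −0.71 ± 0.26 in Ctrl, and Ubash3a by 0.38 ± 0.43 in CKO and −0.77 ± 0.43 in Ctrl. Csk, with 11.03, 10.61 and 10.86 on the CKO pTreg arrays, against 9.89, 10.31 and 10.35 on the CKO Teff arrays, had a difference of 0.65 ± 0.21 without overlap (unadjusted p = 0.00939). Among Ctrl arrays Csk had 11.19, 10.65 and 10.60 in pTreg, against 10.51, 10.14 and 10.61 in Teff, a difference of 0.40 ± 0.21. Cblb differed by −0.56 ± 0.23 in CKO, without overlap, and by −0.47 ± 0.23 in Ctrl, with overlap.

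Ptpn22 had 11.06, 10.42 and 10.14 on the CKO pTreg arrays, against 11.64, 11.97 and 10.65 on the CKO Teff arrays, a difference of −0.88 ± 0.38 (unadjusted p = 0.0410). Among Ctrl arrays it had 11.20, 10.90 and 10.80 in pTreg, against 11.58, 11.95 and 10.83 in Teff, a difference of −0.49 ± 0.38. Its groups overlapped in both genotypes, and without CKO Teff arrays 1 and 2 the CKO difference was −0.11. Ptpn6 differed by −0.74 ± 0.30 in CKO and by 0.31 ± 0.30 in Ctrl. In CKO all 8 basophil and mast cell markers were lower in pTreg than in Teff, with a median log2 difference of −3.16, against −0.11 in Ctrl, and their part in the CKO differences was not tested.

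**Figure D5:**
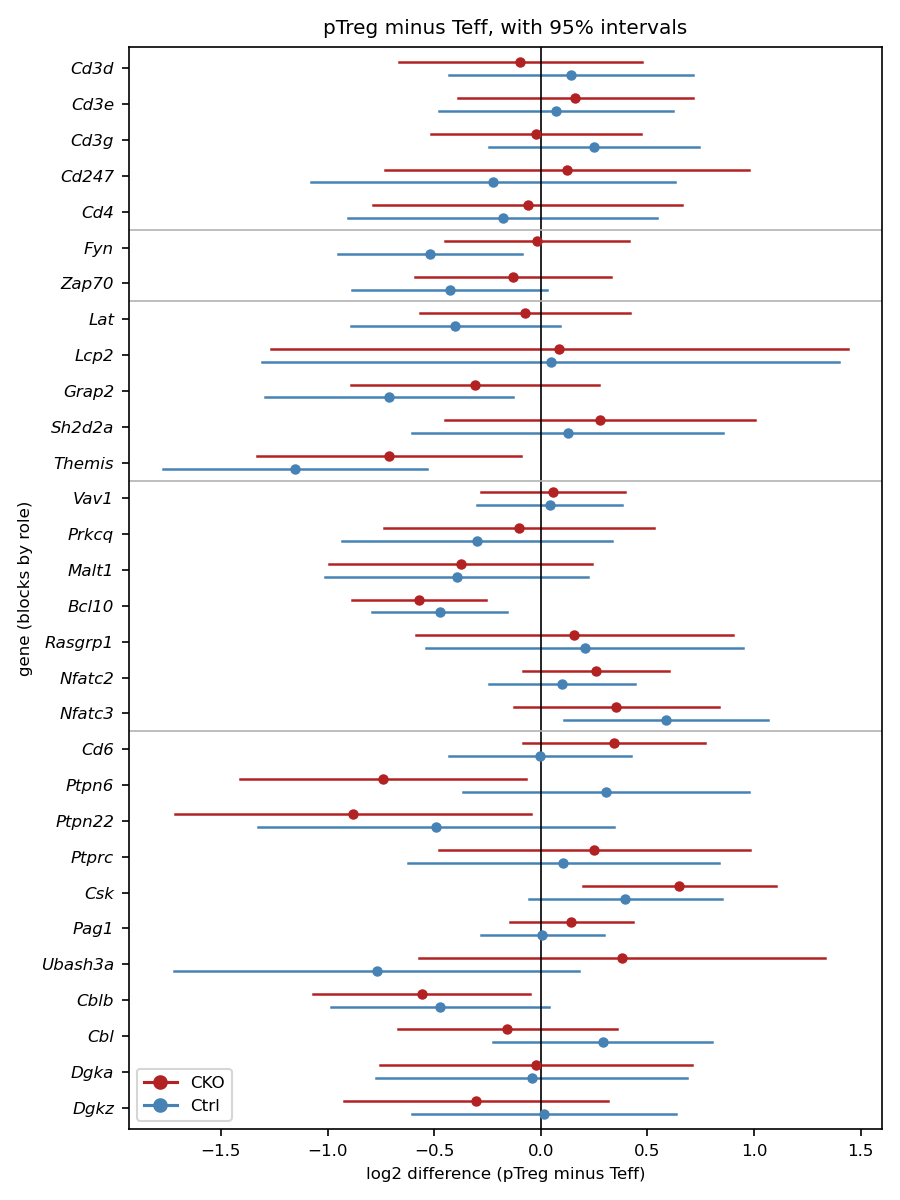
Log2 difference, pTreg minus Teff (horizontal axis), of the 30 tested genes (rows, in blocks by role) among CKO and among Ctrl arrays, with 95% intervals from limma. Themis stood at −0.71 in CKO and −1.15 in Ctrl, Bcl10 lay below 0 in both, and most receptor chains lay close to 0.

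Genes further along or beside the pathway were read from 5 lists. In pTreg 0 of 29 other proximal kinases, adaptors and phosphatases, 0 of 17 calcium and NFAT genes, 0 of 17 Ras and MAP kinase genes and 0 of 19 protein kinase C and NF-kB genes passed between the genotypes without the block, with 4, 6, 2 and 1 of them under 0.05 before adjustment, and their median log2 differences were −0.12, −0.08, −0.07 and −0.19. Of all genes, 5.33% were under 0.05 in pTreg, and the 6 calcium genes were 3 higher and 3 lower in CKO. In Teff 0 of each list passed, with 3, 1, 2 and 1 under 0.05 before adjustment and medians of −0.09, 0.03, −0.09 and −0.05 (4.17% of all genes under 0.05). The smallest p in pTreg belonged to Stim2 in the calcium list, a calcium sensor of the endoplasmic reticulum, at 0.57 ± 0.14 (unadjusted p = 0.00185, adjusted p = 0.284, with the block 0.101), and to Rasal3 in the Ras list, a Ras GTPase-activating protein, at −0.76 ± 0.17 (unadjusted p = 0.000928, adjusted p = 0.212, with the block 0.0689). Of 18 T cell receptor loci listed only Ptcra was tested, at −0.12 in pTreg and 0.18 in Teff. By mean alone 10 of the 17 calcium genes were lower and 7 higher in CKO pTreg. With the block 3 of the 17 passed in pTreg, all lower in CKO (2.18% of all genes passed, 1.3% lower). Ppp3ca, the catalytic calcineurin subunit, fell by 1.25 ± 0.16 (adjusted p = 0.00909). Camk4, a calmodulin-dependent kinase, fell by 1.13 ± 0.15 (0.00909), and Itpr2, an inositol trisphosphate receptor, by 1.00 ± 0.18 (0.0316). Arhgef6, a Rac exchange factor, fell by 0.88 ± 0.15 (0.0218) and Nfkbia, the inhibitor of NF-kB, by 0.66 ± 0.13 (0.0362), while Tespa1, an adaptor of thymocyte development, rose by 1.40 ± 0.22 (0.0194). In CKO Teff the block gave 1 gene of these lists, Sit1, a transmembrane adaptor that recruits phosphatases, which fell by 1.42 ± 0.17 (0.0285, where 0.099% of all genes passed). The Teff difference of Sit1 without CKO Teff arrays 1 and 2 was −0.63. Camk4, Itpr2 and Nfkbia were named because they passed with the block.

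Between pTreg and Teff the calls in these lists were MAP kinase phosphatases. In CKO pTreg Dusp2 fell by 0.83 ± 0.14 (limma, adjusted p = 0.0445) and Dusp6 by 1.63 ± 0.27 (0.0352) relative to CKO Teff. In Ctrl pTreg Dusp2 fell by 1.26 ± 0.14 (0.00326) and Dusp6 by 1.66 ± 0.27 (0.0170), and Dusp4, named because it passed, rose by 1.08 ± 0.18 (0.0190). These were 2 of 17 Ras and MAP kinase genes in CKO (0.355% of all genes) and 3 of 17 in Ctrl (1.01%), and 0 genes of the other lists passed. Of the other proximal genes, the calcium genes and the NF-kB genes, 5, 5 and 6 were under 0.05 before adjustment in CKO (10.8% of all genes) and 2, 5 and 4 in Ctrl (10.4%).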

How the data were processed

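Values were deposited as 1 log2 intensity for each probe of 12 Illumina mouse arrays, 1 per sample; the log2 scale was read from their range. RNA was purified on Qiagen columns and, per the labels, cRNA was made with an Ambion MessageAmp kit. GenomeStudio and limma 3.30.11 appear in the submitters' processing notes. How background was corrected and arrays were normalized before deposit is not stated in the sources used here, and with array medians of 4.66 to 4.68 the values were taken as they are. The number of arrays limits the precision. No label says that replicates are separate animals, so a p-value reflects only the spread of these samples.

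Of 31641 probes, 28197 had a single symbol, 5 had several and 3439 had none. A probe was kept above the array median on at least 3 arrays, and the brightest kept probe stood for a gene. Testing used limma 3.58.1 in R 4.3.3 (lmFit, eBayes, all 12 arrays, 1 mean per group, 10.5 total degrees of freedom), two-sided, with Benjamini-Hochberg adjustment over 12119 genes. The same steps were run on simulated data whose arrays were drawn independently. Those data held no pairs and no cells of other types, so they do not bear on the blocked calls. The members, lists and tests were chosen with earlier results of these data known. Values per array are given for members called in any fit, for the 3 highest and the 3 lowest in each comparison of groups, and for Cd3e, Cd247, Cd4, Zap70 and Lat, and for a list, some of the genes with the smallest p or called with the block were named.

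Residuals of same-numbered arrays correlated at 0.545, 0.519 and 0.589 between CKO and Ctrl in pTreg and at 0.348, 0.733 and 0.737 in Teff, which takes the numbers as pairs within a cell type, a finding of the data that the labels do not state. The block was the replicate number within each cell type. Between pTreg and Teff they ran between 0.0413 and 0.325 in CKO and between −0.266 and 0.265 in Ctrl, so no pairs were used there. Alternatives were quantile normalization, median centring, a filter at the 75th percentile or none, averaged probes, trend and robust options of eBayes, array weights, blocks, only the arrays compared and leaving out each array; every probe alone, blocks without 1 pair, the mean over cell types and leaving out CKO Teff arrays 1 and 2 were added after the data were seen. Statmod 1.5.0 and data.table (version 1.17.8) were also used.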

Additional observations from a re-analysis of the deposited data

Results flagged for a closer look

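The genotype difference of Ptpn6 had opposite signs in the cell types, with the CKO array lower in 3 of 3 pTreg pairs (−0.55, −0.50 and −0.25) and higher in 3 of 3 Teff pairs (1.43, 0.16 and 0.26). The test of the difference itself, pTreg minus Teff, gave −1.05 ± 0.43 on the log2 scale (limma, unadjusted p = 0.0335, adjusted p = 1.00), which fails the correction over 12119 genes. The adjusted p ran from 0.166 to 1.00 over its 30 alternatives.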

How the results depend on the processing

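For 31 differences of single genes, none of which passed without the block, 873 alternatives brought 66 calls and 0 changes of direction. These 31 were picked because they were under 0.05 before adjustment in limma or passed with the block. A stable direction was thus largely built in. For these differences the setting with every probe alone used the brightest probe, so a reversal by another probe could not be counted. The number of the 30 genes past the threshold, 0 without the block, was 3 in pTreg, 1 in Teff and 6 for the mean of both cell types with the replicate block within cell types, 3 for the mean with the replicate block over all arrays, and 1, 1 and 4 with the replicate block as a random effect. With the block and 1 pTreg pair left out it was 0 in pTreg, 0 to 1 in Teff and 4 to 5 for the mean, and with 1 Teff pair left out 3 in pTreg, 0 to 2 in Teff and 4 to 5 for the mean. For the mean it was also 1 with the mean of probes, 1 with every probe alone and 2 with array weights. Leaving out 1 array gave 0 to 1 in Teff, 0 to 1 for pTreg against Teff in Ctrl, 0 to 1 for the mean, and 0 in the other comparisons. Counts for the interaction and for pTreg against Teff in CKO were 0 under every alternative run. Over all genes the block moved the calls to 264 in pTreg, against 12 without it, and to 12 in Teff, against 2. The cause of these moves was not tested. Dim signals, as for Grap2, Prkcq, Cbl, Cd4, Nfatc2 and Pag1, limit what differences can be seen.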
